A study of Rattus norvegicus with 36 samples.

Results

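The satellite glia genes described here are Gja1, Gjb6, Glul, Slc1a2, Slc1a3, Fabp7, Apoe, Sparcl1, S100b and Vim, measured in rat dorsal root ganglia (DRG), which hold the cell bodies of sensory neurons and lie next to the spinal cord. They are 10 of the 10969 genes that a probe set of the series names alone. Their probe sets were all those whose platform annotation gives exactly 1 of these 10 symbols, which made 25 probe sets of 26202, with 20 on chip A, 4 on chip B and 1 on chip C of the Affymetrix RG_U34 set. A probe set is the group of short oligonucleotides that reads 1 transcript. The series holds 6 pools of ganglia. L5 ganglia came from rats with a tied L5 spinal nerve (SNL, spinal nerve ligation, a model of neuropathic pain), and L4 ganglia from rats with the same L5 ligation, whose own L4 nerve was not tied. Sham ganglia came from sham-operated rats and hold L4 and L5 ganglia together, so any normal difference between the 2 levels cannot be told apart from the injury in comparisons with sham or of L5 against L4. Each condition had 1 pool at 50 days and 1 at 28 days after surgery. A pool came from 30 rats according to 30 of the 36 labels, and the other 6 state no number. Strain, sex and age are not given in the sources used here. Each pool was hybridised to 2 arrays of every chip type, and per the series' design text the pooled arrays hold no biological replicates.

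Satellite glia wrap each sensory neuron body in the ganglion and are joined to one another by gap junctions made of connexins. They take up glutamate, turn it into glutamine, and share many genes with astrocytes of the brain and with Schwann cells of the nerve. After nerve injury they are known for stronger coupling and for a reactive state in which intermediate filament proteins can change.

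The label was checked against the arrays. All 10 genes had at least 1 probe set bright enough to test, and Apoe, Vim, S100b, Sparcl1 and Glul were measured at mean signals of 948 or more by their brightest probe sets. None of the 10 is exclusive to satellite glia. Vim is also made by fibroblasts, macrophages and Schwann cells, S100b by Schwann cells, and Apoe by macrophages. A further 2 defining genes of this cell type lay near the floor of the arrays: the potassium channel Kcnj10 had a mean signal of 20.1 by its brighter probe set, and the ATP receptor P2rx7 of 18.5, both below the filter on dim probe sets.

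Signals are MAS5 intensities on a linear scale, and the arrays had been brought to 1 common level before deposit, so each difference is relative to the average probe set of an array. Partner arrays of 1 pool had correlations of 0.882 to 0.958 over the tested probe sets. On 5 of the 36 arrays the correlation with an array of another pool was higher than with the partner array. Differences are on the scale of log2(signal + pseudocount), which understates the change of dim probe sets, with the standard error (SE) of a limma fit to the 6 pools. Each condition is represented by its 50-day and its 28-day pool, so p-values rest on spread between pools and not between rats. The variance of each probe set was also drawn towards that of probe sets of similar brightness (eBayes with trend). The p-values therefore do not measure the spread of a probe set's own pools alone. In L5 against sham, 123 of all 15721 probe sets had an adjusted p under 0.05 with that trend, and 4 without it. In whole ganglia, fewer cells of a type and less RNA per cell cannot be told apart.

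In ligated L5 ganglia the satellite glia genes showed no common direction against sham. Of the 17 probe sets tested, 0 passed the threshold in L5 against sham (limma with Benjamini-Hochberg adjustment, adjusted p under 0.05), while 0.782% of all 15721 tested probe sets passed. Without adjustment (p under 0.05), 2 were higher (Slc1a2 and 1 of Apoe) and 2 lower (Fabp7 and 1 of S100b), against 7.42% higher and 9.47% lower among all probe sets. With each gene given by its brightest tested probe set, 5 of 10 genes lay above 0 and 5 below, and the median difference was 0.08, beside 0.00 for all 8279 genes tested. Scaled to the hybridisation controls, 2 of the 10 lay above 0 and 8 below, with a median of -0.36, beside -0.42 for all probe sets. The other 8 probe sets, of Gja1, Slc1a2 and Slc1a3, were too dim to test, with mean signals of 9.57 to 34.9.

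**Figure D1:**
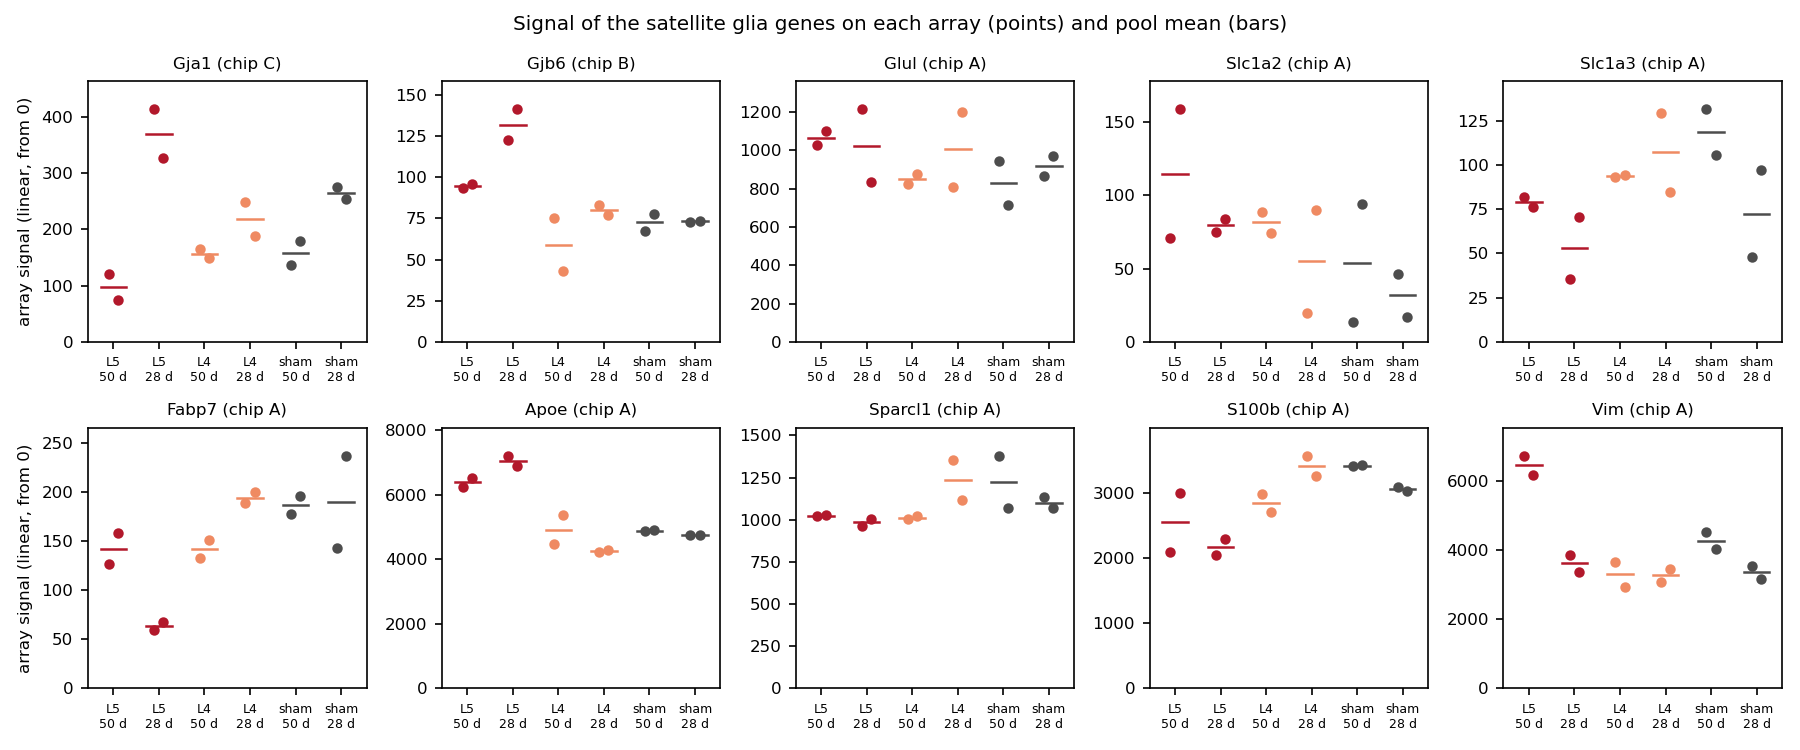
Signal of the 10 satellite glia genes by their brightest tested probe set, with 1 point per array (linear axis from 0), bars at the mean of the 2 arrays of a pool, and pools on the horizontal axis ordered L5, L4 and sham, each at 50 and 28 days. All 4 L5 arrays of Gjb6 and Apoe lie above all 4 sham arrays, and Fabp7 is lowest on both L5 arrays of 28 days.

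All 4 L5 arrays lay apart from all 4 sham arrays in 4 of the 17 probe sets, 2 above (Gjb6 and the brighter probe set of Apoe) and 2 below (Sparcl1 and the brighter probe set of S100b). Among all tested probe sets, 4.06% lay above and 7.56% below in this way.

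Gap junction proteins join satellite glia to each other, and 1 of them, Gjb6, encodes connexin 30. Its probe set (rc_AI059426_at, chip B) gave signals of 93.3 and 95.9 at 50 days and 123 and 141 at 28 days in L5 ganglia, against 67.6 and 78.0 at 50 days and 73.1 and 73.4 at 28 days in sham ganglia. Every L5 array was above every sham array, and the L5 pool of 28 days was the highest of all. L4 ganglia gave 75.3 and 42.9 at 50 days and 83.4 and 77.2 at 28 days, around the sham values. Over the 2 pools Gjb6 averaged 113 ± 26.5 in L5, 69.7 ± 15.0 in L4 and 73.0 ± 0.318 in sham (SD, n = 2 pools each). Here and for the genes below this SD also holds the shift between days. L4 differed from sham by -0.27 at 50 days and 0.11 at 28 days. The difference of L5 from sham was 0.52 ± 0.24 (1.43-fold, 95% interval -0.02 to 1.05) and did not pass (limma, adjusted p = 0.317). With sham of 28 days left out this was 0.32.

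Gja1 encodes connexin 43, the main connexin of astrocytes and satellite glia. Its brighter probe set (rc_AA858448_at, chip C) gave signals of 121 and 73.9 at 50 days and 414 and 326 at 28 days in L5 ganglia, against 136 and 179.5 at 50 days and 275 and 254.5 at 28 days in sham ganglia. The L5 arrays were the lowest of all at 50 days and the highest of all at 28 days. L4 ganglia gave 165 and 149 at 50 days and 249.7 and 189 at 28 days, both between the L5 extremes. Gja1 averaged 234 ± 193 in L5, 188 ± 44.1 in L4 and 211 ± 75.7 in sham (SD, n = 2 pools each), an SD that holds the shift between days. The fitted L5 against sham difference of -0.09 ± 0.29 (limma, adjusted p = 0.901) averages -0.62 at 50 days and 0.45 at 28 days. Leaving out the L5 pool of 50 days turned it to 0.51. The other tested probe set of Gja1 (rc_AI043613_at, chip B) gave 69.6 and 83.2 at 50 days and 109 and 117 at 28 days in L5, against 91.8 and 111 at 50 days and 142 and 106 at 28 days in sham. It also had its lower L5 values at 50 days, but its L5 arrays of 28 days lay inside the sham range (-0.22 ± 0.22, limma, adjusted p = 0.641).

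The other connexins and pannexins, of which 8 of 18 listed genes were tested, all lay above 0 in L5 against sham, with a median of 0.43 and 0 called. Without adjustment 2 were higher and 0 lower at p under 0.05, and the share of all tested probe sets above 0 was 53.6%. Those with the lowest p were Gjb2 (connexin 26, 1.10 ± 0.29, limma, adjusted p = 0.109), Gja5 (connexin 40, 0.47 ± 0.21, adjusted p = 0.291) and Gja4 (connexin 37, 0.75 ± 0.35, adjusted p = 0.309). With arrays scaled to the hybridisation controls, 3 of the 8 lay above 0 and the median was -0.03, with all 8 above the median of all probe sets (-0.42). Several of these connexins are made by vessel cells or Schwann cells.

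**Figure D2:**
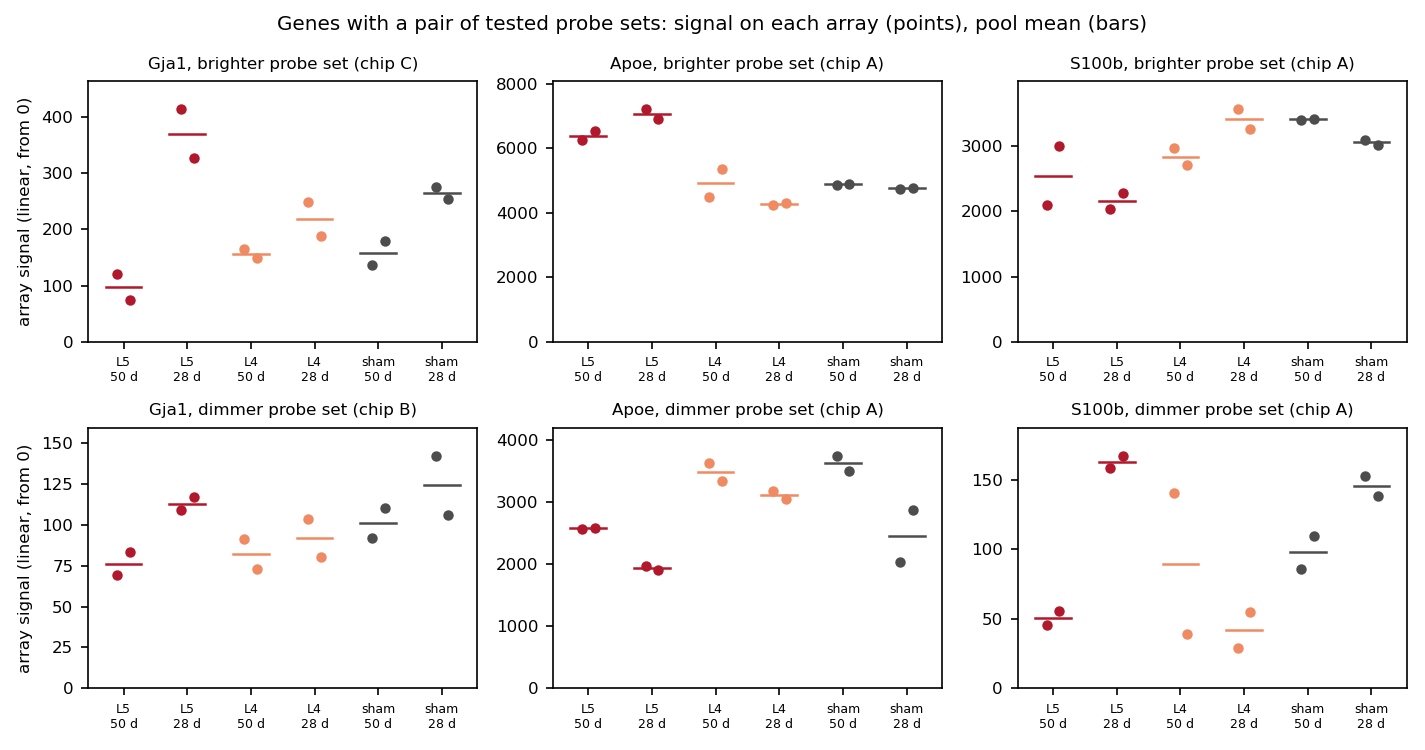
Signal on each array (points, linear axis from 0, pool means as bars) for the brighter (top) and dimmer (bottom) tested probe set of Gja1, Apoe and S100b, with pools ordered L5, L4 and sham, each at 50 and 28 days. The Apoe probe sets are on opposite sides: the L5 arrays are the highest of the brighter one, while for the dimmer one all 4 L5 arrays lie below all 4 L4 arrays.

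Among the genes of glutamate handling, glutamine synthetase (Glul), which turns glutamate into glutamine and is a classic marker of satellite glia, had 5 tested probe sets. The brightest (M91652complete_seq_g_at, chip A) gave signals of 1029 and 1102 at 50 days and 1213 and 835 at 28 days in L5 ganglia, against 944 and 712 at 50 days and 864 and 971 at 28 days in sham ganglia. Both groups overlapped, and the 2 arrays of the L5 pool of 28 days were further apart than the groups. L4 ganglia gave 825.5 and 875 at 50 days and 810.3 and 1199.6 at 28 days. Glul averaged 1045 ± 29.3 in L5, 928 ± 109 in L4 and 873 ± 63.4 in sham (SD, n = 2 pools each). L5 differed from sham by 0.25 ± 0.18 (95% interval -0.13 to 0.64) and did not pass (limma, adjusted p = 0.489). With L5 of 50 days left out this was 0.12, and with L5 of 28 days left out 0.39. The other 4 probe sets of Glul ran from -0.11 to 0.28 with adjusted p of 0.612 or more, and the 2 next in brightness had opposite signs.

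Slc1a2 (GLT-1) and Slc1a3 (GLAST) are the transporters that take glutamate into glia. The only testable probe set of Slc1a2 (rc_AI638980_at, chip A) gave 70.6 and 159 at 50 days and 75.0 and 83.9 at 28 days in L5 ganglia, against 13.3 and 94.2 at 50 days and 46.2 and 17.2 at 28 days in sham ganglia. One sham array of 50 days was above all but 1 of the L5 arrays, and the 2 arrays of that sham pool differed by more than the mean levels of L5 and sham did. L4 ganglia gave 88.7 and 74.3 at 50 days and 19.5 and 90.2 at 28 days. Slc1a2 averaged 97.1 ± 24.9 in L5, 68.2 ± 18.8 in L4 and 42.7 ± 15.6 in sham (SD, n = 2 pools each). The ranges of mean ± SD of neighbours overlapped, but this SD also holds the shift between days. Pool means kept the order L5, L4 and sham at each day, with 114.65, 81.5 and 53.75 at 50 days and 79.45, 54.85 and 31.7 at 28 days. Its L5 against sham difference was the largest of the 17, 1.15 ± 0.33 (2.23-fold, 95% interval 0.44 to 1.87, limma, adjusted p = 0.121), with 1.18 at 50 days and 1.13 at 28 days. The next brightest Slc1a2 probe set (U15098_at, chip A, mean signal 34.9) was below the filter and differed by 0.69 at 50 days and by -0.35 at 28 days, so it did not repeat that direction on both days.

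For Slc1a3 the only testable probe set (S59158_at, chip A) gave 81.8 and 76.4 at 50 days and 35.4 and 70.6 at 28 days in L5 ganglia, against 131 and 106 at 50 days and 47.7 and 97.2 at 28 days in sham ganglia. The L5 arrays were below sham at 50 days and overlapped it at 28 days. L4 ganglia gave 93.1 and 94.0 at 50 days and 129 and 84.9 at 28 days, so all 4 L5 arrays were below all 4 L4 arrays. Slc1a3 averaged 66.1 ± 18.5 in L5, 100.25 ± 9.48 in L4 and 95.5 ± 32.6 in sham (SD, n = 2 pools each). L5 differed from sham by -0.44 ± 0.31 (0.739-fold, limma, adjusted p = 0.498). Leaving out sham of 50 days gave -0.19, and leaving out sham of 28 days gave -0.68. The Slc1a3 probe sets below the filter did not share 1 direction. Fitted with no filter they differed by 0.00, 0.55, 0.42 and -0.08, from the brightest to the dimmest.

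Other genes of the glutamate and glutamine cycle, with 10 of 21 tested, lay mostly below 0 in L5 against sham: 8 did, the median was -0.46, and 0 were called. Among all tested probe sets 46.4% lay below 0. Before adjustment 0 were higher and 5 lower at p under 0.05. Those with the lowest p were Got2, the mitochondrial aspartate aminotransferase (-0.63 ± 0.18, limma, adjusted p = 0.126), Gls2, a glutaminase (-1.08 ± 0.36, adjusted p = 0.162), and Slc38a1, a glutamine transporter (-0.54 ± 0.18, adjusted p = 0.180). The median was also below 0 with quantile normalization (-0.34), median centring (-0.63) and hybridisation controls (-0.94). Sensory neurons also use several of these genes.

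Fabp7, the brain-type fatty acid binding protein of radial glia, astrocytes and satellite glia, showed the largest negative difference of the 17. Its probe set (U02096_at, chip A) gave 126 and 158 at 50 days and 59.2 and 67.1 at 28 days in L5 ganglia, against 178 and 196 at 50 days and 142.5 and 236 at 28 days in sham ganglia. Both L5 arrays of 28 days were below every other array of the series, whereas those of 50 days were below the sham arrays of that day but overlapped the sham arrays of 28 days. L4 ganglia gave 132 and 151 at 50 days and 188 and 199.8 at 28 days. Fabp7 averaged 103 ± 55.9 in L5, 168 ± 37.1 in L4 and 188 ± 1.87 in sham (SD, n = 2 pools each). L5 differed from sham by -0.87 ± 0.32 (0.546-fold, 95% interval -1.56 to -0.19) and did not pass (limma, adjusted p = 0.194). By day it was -0.37 at 50 days and -1.37 at 28 days. Fabp7 passed without the L5 pool of 50 days (-1.49, limma, adjusted p = 0.00045) and without the L4 pool of 50 days (-0.87, adjusted p = 0.0469), and was -0.26 (adjusted p = 0.65) without the L5 pool of 28 days.

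Apoe, the main lipid carrier made by glia, was read by 2 probe sets that differed in sign. The brighter (X04979_at, chip A) gave 6251 and 6532 at 50 days and 7211 and 6907 at 28 days in L5 ganglia, against 4869.5 and 4902 at 50 days and 4757 and 4762 at 28 days in sham ganglia. Every L5 array was above every sham array. L4 ganglia gave 4478 and 5372 at 50 days and 4234.5 and 4299 at 28 days, all below the L5 arrays. It averaged 6725 ± 472 in L5, 4596 ± 466 in L4 and 4823 ± 89.2 in sham (SD, n = 2 pools each). L4 differed from sham by 0.01 at 50 days and -0.16 at 28 days. The difference of L5 from sham was 0.48 ± 0.19 (1.39-fold, 95% interval 0.06 to 0.89, limma, adjusted p = 0.236). Among the alternatives run it passed where the 12 arrays were fitted with the pool as a random block (0.48, limma, adjusted p = 0.0178). That fit enters the 2 arrays of a pool as separate values, though they share RNA. In it 1113 of all 15721 probe sets passed.

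The dimmer Apoe probe set (S76779_s_at, chip A) gave 2576 and 2581 at 50 days and 1976 and 1914 at 28 days in L5 ganglia, against 3747 and 3502 at 50 days and 2034 and 2875 at 28 days in sham ganglia. Every L5 array was below every sham array of its own day. L4 ganglia gave 3626 and 3339 at 50 days and 3179 and 3054 at 28 days, all above the L5 arrays. For this probe set L5 differed from sham by -0.40 ± 0.19 (0.758-fold, 95% interval -0.80 to 0.00, limma, adjusted p = 0.301). The ending _s in its name marks probes that may match more than 1 transcript. The brighter S100b probe set and some of Glul carry it too. No direction can be given for Apoe as a gene from these values.

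Of the other lipid carriers and fatty acid binding proteins 15 of 22 were tested, with 10 above 0 and 5 below, a median of 0.23 (-0.21 when scaled to the hybridisation controls) and 0 called. Unadjusted, 2 were higher and 1 lower at p under 0.05. Those with the lowest p in L5 against sham were Apod, an apolipoprotein of nerve and glia (0.79 ± 0.25, limma, adjusted p = 0.151), Scarb1, a lipoprotein receptor (1.02 ± 0.34, adjusted p = 0.168), and Fabp3, the heart-type fatty acid binding protein (-0.75 ± 0.30, adjusted p = 0.238).

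Sparcl1 encodes a secreted matrix protein of astroglia. Its probe set (U27562_at, chip A) gave 1019.7 and 1027 at 50 days and 965 and 1004 at 28 days in L5 ganglia, against 1379 and 1069 at 50 days and 1133 and 1069.9 at 28 days in sham ganglia. All L5 arrays were below all sham arrays, but by a narrow margin at the nearest pair. L4 ganglia gave 1003 and 1021 at 50 days and 1355 and 1119.8 at 28 days. Sparcl1 averaged 1004 ± 27.5 in L5, 1125 ± 159 in L4 and 1163 ± 86.7 in sham (SD, n = 2 pools each). L5 differed from sham by -0.20 ± 0.18 (0.869-fold, limma, adjusted p = 0.595). With sham of 50 days left out this was -0.076, and with sham of 28 days left out -0.33.

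S100b encodes a calcium-binding protein of satellite glia and Schwann cells. Its brighter probe set (S53527mRNA_s_at, chip A) gave 2098 and 2999 at 50 days and 2039.8 and 2285 at 28 days in L5 ganglia, against 3408 and 3424 at 50 days and 3095 and 3025 at 28 days in sham ganglia. All L5 arrays were below all sham arrays, 1 of the 50-day pair by a small margin. L4 ganglia gave 2974 and 2708 at 50 days and 3565.5 and 3260 at 28 days, on both sides of the sham range. It averaged 2355 ± 273 in L5, 3127 ± 404 in L4 and 3238 ± 252 in sham (SD, n = 2 pools each). L5 differed from sham by -0.47 ± 0.19 (0.721-fold, 95% interval -0.89 to -0.06, limma, adjusted p = 0.239), with -0.44 at 50 days and -0.50 at 28 days. The ending _s in the name of this probe set carries the limit given for Apoe.

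The dimmer S100b probe set (rc_AI146214_at, chip A) gave 45.8 and 55.4 at 50 days and 158 and 167 at 28 days in L5 ganglia, against 85.4 and 109.8 at 50 days and 152.5 and 138.5 at 28 days in sham ganglia. Its L5 arrays were below sham at 50 days and above it at 28 days, unlike those of the brighter probe set. L4 ganglia gave 140.4 and 38.8 at 50 days and 29.2 and 55.1 at 28 days, with a wide gap between the arrays of 50 days. L5 and sham differed by -0.32 ± 0.42 (limma, adjusted p = 0.725).

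Vim encodes vimentin, the intermediate filament protein of glia and connective tissue. Its probe set (X62952_at, chip A) gave 6714 and 6160 at 50 days and 3860.5 and 3355 at 28 days in L5 ganglia, against 4511 and 4028 at 50 days and 3546 and 3166 at 28 days in sham ganglia. The L5 pool of 50 days stood above every other array, and that of 28 days overlapped sham. L4 ganglia gave 3646 and 2940.5 at 50 days and 3075 and 3449 at 28 days. Vim averaged 5022 ± 2001 in L5, 3277 ± 22.0 in L4 and 3813 ± 646 in sham (SD, n = 2 pools each). L5 differed from sham by 0.35 ± 0.22 (1.27-fold, limma, adjusted p = 0.439), with 0.59 at 50 days and 0.10 at 28 days. Leaving out L5 of 50 days gave 0.018, and leaving out L5 of 28 days gave 0.68.

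Among other intermediate filament genes, 9 of 14 were tested, 5 above and 4 below 0, with a median of 0.00 (-0.45 when scaled to the hybridisation controls) and 0 called. Unadjusted, 0 were higher and 1 lower at p under 0.05. Those with the lowest p were the neuronal filament gene Ina (-0.68 ± 0.23, limma, adjusted p = 0.168), the lamin Lmnb1 (0.43 ± 0.29, adjusted p = 0.481) and the neurofilament gene Nefh (-0.29 ± 0.21, adjusted p = 0.518). Gfap, the filament of reactive glia, was not analysed here. In the S100 and SPARC families 14 of 16 genes were tested, with 8 above 0, a median of 0.11 (-0.38 when scaled to the hybridisation controls) and 0 called in L5 against sham. Before adjustment 3 were higher and 1 lower at p under 0.05. S100a4 (0.81 ± 0.23, limma, adjusted p = 0.122), Spock2 (-0.67 ± 0.20, adjusted p = 0.140) and Smoc2 (0.85 ± 0.28, adjusted p = 0.187) had the lowest p.

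**Figure D3:**
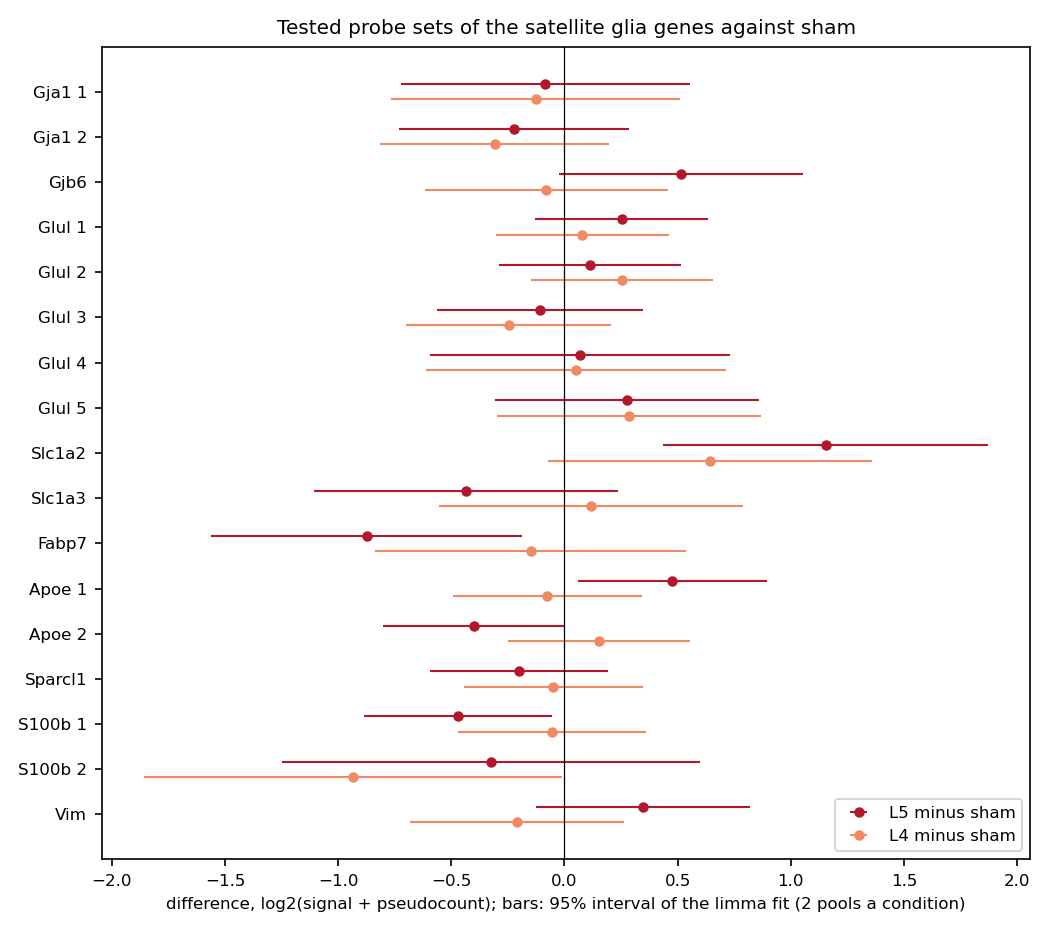
Difference from sham of each tested probe set in L5 and in L4 ganglia, on the log2(signal + pseudocount) scale, with 95% intervals of the limma fit to 2 pools a condition. Probe sets of a gene are numbered from the brightest, none passed the adjusted threshold in either comparison, and scaling to the hybridisation controls turned the L5 sign of 4 Glul probe sets, the first of Apoe and Vim, and the L4 sign of the first probe sets of Apoe, Gja1, Gjb6, S100b and Sparcl1.

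The scaling of the arrays bore on these directions. When arrays were scaled to their spiked hybridisation controls, the median of all probe sets in L5 against sham was -0.42, beside 0.04 with the trimmed mean. On that scale the brighter Apoe probe set was at -0.020, Vim at -0.15, Glul at -0.24 and Gjb6 at 0.03, each still above the median of all probe sets. Fabp7 (-1.31, limma, adjusted p = 0.00644), the brighter S100b (-0.97, adjusted p = 0.0185) and the dimmer Apoe probe set (-0.90, adjusted p = 0.0283) passed there as lower. So did 2738 of all 15721 probe sets. The other 3 Glul probe sets above 0 also lay below 0 on that scale (-0.37, -0.35 and -0.16), 2 of them with median centring too (-0.08 and -0.12). In L4 against sham that scaling put all probe sets at a median of 0.19 and turned the brightest probe sets of Apoe (0.06), Gja1 (0.14), Gjb6 (0.09), S100b (0.08) and Sparcl1 (0.09) from below to above 0.

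In the neighbouring L4 ganglia, whose nerve was intact, 0 of 17 probe sets passed against sham, and 0 of all 15721 did (0%). Unadjusted, 0 were higher and 1 lower at p under 0.05, beside 1.54% and 1.17% of all probe sets. The lower one was the dimmer S100b probe set (-0.93 ± 0.42, limma, adjusted p = 0.999), whose L4 arrays disagreed with each other at 50 days, and the brighter one differed by -0.06 ± 0.19. The largest positive difference was that of Slc1a2 (0.64 ± 0.33, 95% interval -0.07 to 1.36). All 4 L4 arrays lay apart from all 4 sham arrays in 1 probe set, above, against 1.93% above and 1.86% below among all probe sets. That was the second probe set of Glul (M91652complete_seq_at, chip A), with 580.3 and 503 at 50 days and 511 and 443 at 28 days in L4 ganglia, against 439.9 and 409 at 50 days and 414 and 429 at 28 days in sham ganglia. Its L4 and sham ranges lay close together, and the difference was 0.26 ± 0.18 (limma, adjusted p = 0.999).

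Set against the L4 ganglia of operated rats, the ligated L5 ganglia gave 0 calls among the 17 probe sets, while 1.29% of all probe sets passed. Before adjustment, 3 were higher and 3 lower at p under 0.05, beside 8.44% and 10.9% of all probe sets. The higher ones were Vim (0.56 ± 0.22, limma, adjusted p = 0.194), the brighter Apoe probe set (0.55 ± 0.19, adjusted p = 0.157) and Gjb6 (0.60 ± 0.24, adjusted p = 0.220). The lower ones were the dimmer Apoe probe set (-0.55 ± 0.19, adjusted p = 0.147), Fabp7 (-0.72 ± 0.32, adjusted p = 0.239) and the brighter S100b probe set (-0.42 ± 0.19, adjusted p = 0.258). This split depended on the scaling: with hybridisation controls the median of all probe sets was -0.61, and Vim (-0.076), the brighter Apoe (-0.082) and Gjb6 (-0.054) lay below 0. On that scale 6364 of all 15721 probe sets passed, 6343 of them as lower. The 6 of the 17 that passed there were all lower: Fabp7 (-1.29, limma, adjusted p = 0.00283), the dimmer Apoe (-1.19, adjusted p = 0.00197), Slc1a3 (-1.09, adjusted p = 0.0135), the brighter S100b (-1.05, adjusted p = 0.00509), Sparcl1 (-0.78, adjusted p = 0.0336) and the second of Glul (-0.76, adjusted p = 0.039). All 4 L5 arrays lay apart from all 4 L4 arrays in 4 probe sets, 2 above (Gjb6 and the brighter Apoe) and 2 below (Slc1a3 and the dimmer Apoe), beside 5.24% and 9.03% of all probe sets. This comparison and L5 against sham share the L5 arrays.

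Single pools moved several of these values. The L5 against L4 difference of Vim was 0.89 without the L5 pool of 28 days. Without the L5 pool of 50 days that of Fabp7 was -1.34. The dimmer S100b probe set was then at 1.40, and at 0.61 ± 0.42 with all pools. Without the L4 pool of 50 days that S100b probe set was at 1.48. These fits leave a condition with 1 pool, so no calls are given. By day, the L5 against L4 difference of Fabp7 was 0.00 at 50 days and -1.45 at 28 days, and that of Vim 0.97 at 50 days and 0.14 at 28 days.

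Between 50 and 28 days, over the 3 conditions together, 0 of 17 probe sets passed, while 0.286% of all probe sets did. Unadjusted, 2 were higher at 50 days and 1 lower at p under 0.05, beside 9.76% and 8.94% of all probe sets. The lower one was the brighter Gja1 probe set (-0.95 ± 0.24, limma, adjusted p = 0.111), and the higher ones were the dimmer Apoe probe set (0.38 ± 0.15, adjusted p = 0.212) and Vim (0.40 ± 0.18, adjusted p = 0.256). For Gja1 the difference of 50 from 28 days was -1.75 in L5, -0.42 in L4 and -0.69 in sham. It passed without the L4 pool of 28 days (-1.22, adjusted p = 0.0418) or of 50 days (-1.22, adjusted p = 0.0401). Within L5 ganglia Fabp7 differed by 1.02, Vim by 0.84 and the dimmer S100b probe set by -1.47 between 50 and 28 days. With 1 pool a condition and day these have no test.

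**Figure D4:**
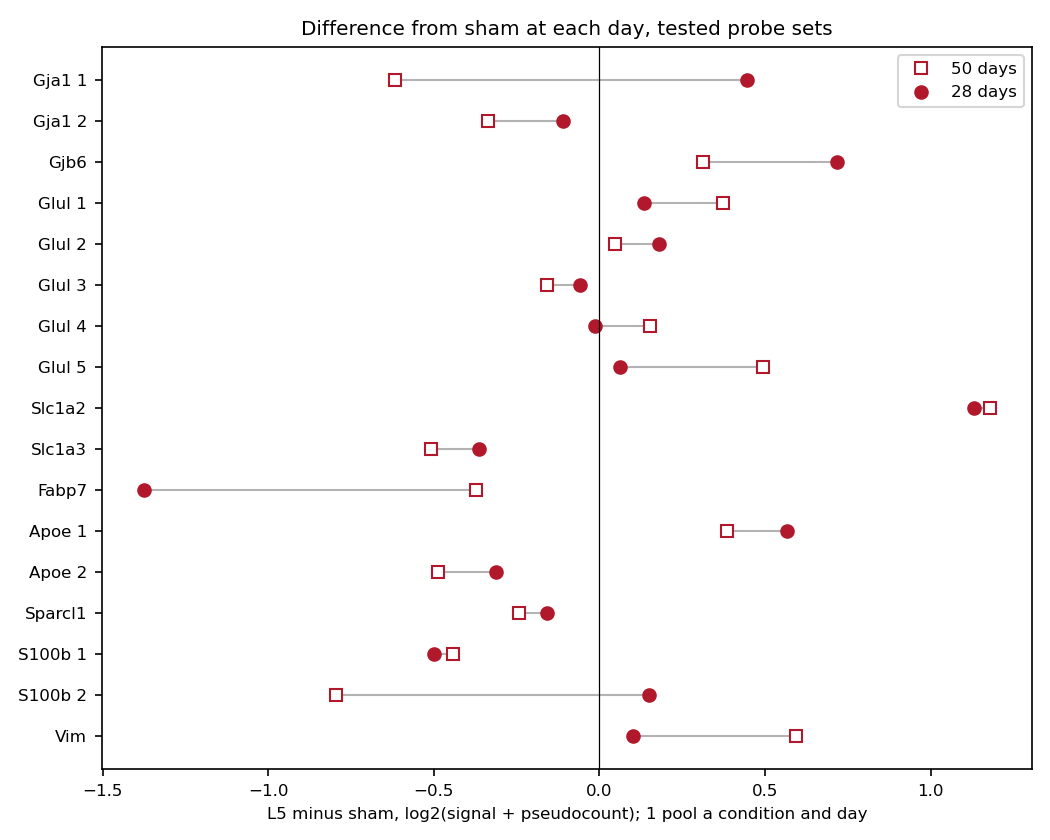
Difference of L5 from sham at 50 days (open squares) and at 28 days (filled circles) for each tested probe set, on the log2(signal + pseudocount) scale, with 1 pool a condition and day and therefore no error bar. Of the probe sets that change their side of 0, the first probe set of Gja1 (-0.62 at 50 days, 0.45 at 28 days) and the second of S100b (-0.80 at 50 days, 0.15 at 28 days) move furthest.

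Probe sets past 1.5-fold were also counted at single days, with 1 pool a condition and no test. In L5 against sham, 2 of 17 probe sets were higher and 2 lower at 50 days, beside 13.4% and 10.2% of all probe sets, and 2 were higher and 1 lower at 28 days, beside 10.2% and 9.73%. Slc1a2 was the 1 gene past 1.5-fold on the same side at both days. In L4 against sham, 1 was higher and 0 lower at 50 days (Slc1a2), beside 4.83% and 4.55% of all probe sets, and 0 were higher and 1 lower at 28 days (the dimmer S100b), beside 5.27% and 4.36%. In L5 against L4, 1 was higher and 1 lower at 50 days (Vim and Gja1), beside 14.1% and 10.5%. At 28 days 5 were higher and 4 lower, beside 11.9% and 11.2%, and the widest were the dimmer S100b (1.72) and Fabp7 (-1.45). Between 50 and 28 days, 2 were higher and 2 lower in L5 (beside 17.9% and 14.2%), 2 and 0 in L4 (beside 5.64% and 4.78%) and 1 and 1 in sham (beside 7.79% and 6.55%).

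Of 40 other genes of satellite glia and astroglia, 28 were tested, 5 were on the chips below the filter (Aqp4, Kcnj10, Kcnj16, P2rx7 and Scrg1) and 7 were not analysed here. In L5 against sham 11 lay above 0 and 17 below, the median was -0.05 (-0.53 when scaled to the hybridisation controls, beside -0.42 for all probe sets), and 0 passed. Before adjustment 3 were higher and 4 lower at p under 0.05. Those with the lowest p were Aldoc, the aldolase of astroglia (-0.92 ± 0.21, limma, adjusted p = 0.0752), Ntsr2, a neurotensin receptor (-1.01 ± 0.29, adjusted p = 0.124), and Ptgds, prostaglandin D synthase (0.59 ± 0.17, adjusted p = 0.129). In L4 against sham 0 of the 28 passed as well (median -0.06), as in L5 against L4 (median 0.01).

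Markers of other cells were read in the same pools. The 20 sensory neuron genes had a median L5 against sham difference of -0.39 at 50 days and -0.49 at 28 days, and 3 passed as lower over both days (Avil, Scn10a and Scn11a). The 13 tested genes of injured axons had medians of 0.64 at 50 days and 1.37 at 28 days, and Vip, Npy, Atf3 and Gal passed as higher over both days. The 15 macrophage genes had medians of 0.15 at 50 days and 1.07 at 28 days, 11 of 15 above 0 at 50 days and 15 of 15 at 28 days, but 0 passed over both days (limma, 5 higher and 0 lower at an unadjusted p under 0.05). Macrophage signals summed to 2534 at 50 days and 6540 at 28 days in L5, 2051 at 50 days and 2407 at 28 days in L4, and 2238 at 50 days and 2505 at 28 days in sham. Medians of the 11 fibroblast genes were 0.09 at 50 days and 0.67 at 28 days, of the 14 skeletal muscle genes 0.30 at 50 days and 1.57 at 28 days, and of the 11 myelinating Schwann cell genes 0.08 at 50 days and 0.36 at 28 days. Of these, the muscle gene Tpm2 alone passed over both days (1.16 ± 0.21, limma, adjusted p = 0.0449). Scaled to the hybridisation controls, the fitted medians of fibroblast and myelinating Schwann cell genes were -0.17 and -0.25, and those of macrophage and muscle genes 0.14 and 0.53. The 9 repair Schwann cell genes lay at -0.14 and -0.24, the 13 vessel genes at 0.04 and -0.04 and the 8 proliferation genes at 0.59 and 0.42 at 50 and 28 days.

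The L5 pool of 28 days held the low Fabp7 values, the high Gjb6 values and the high values of the brighter Gja1 and Apoe probe sets. The dimmer Apoe probe set was at its lowest there (mean signal 1945), and the dimmer tested Gja1 probe set lay inside the sham range (112.9). The same pool had the highest macrophage, fibroblast and muscle signals of the 6 pools. The part of these other cells in the values of the satellite glia genes was not tested.

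**Figure D5:**
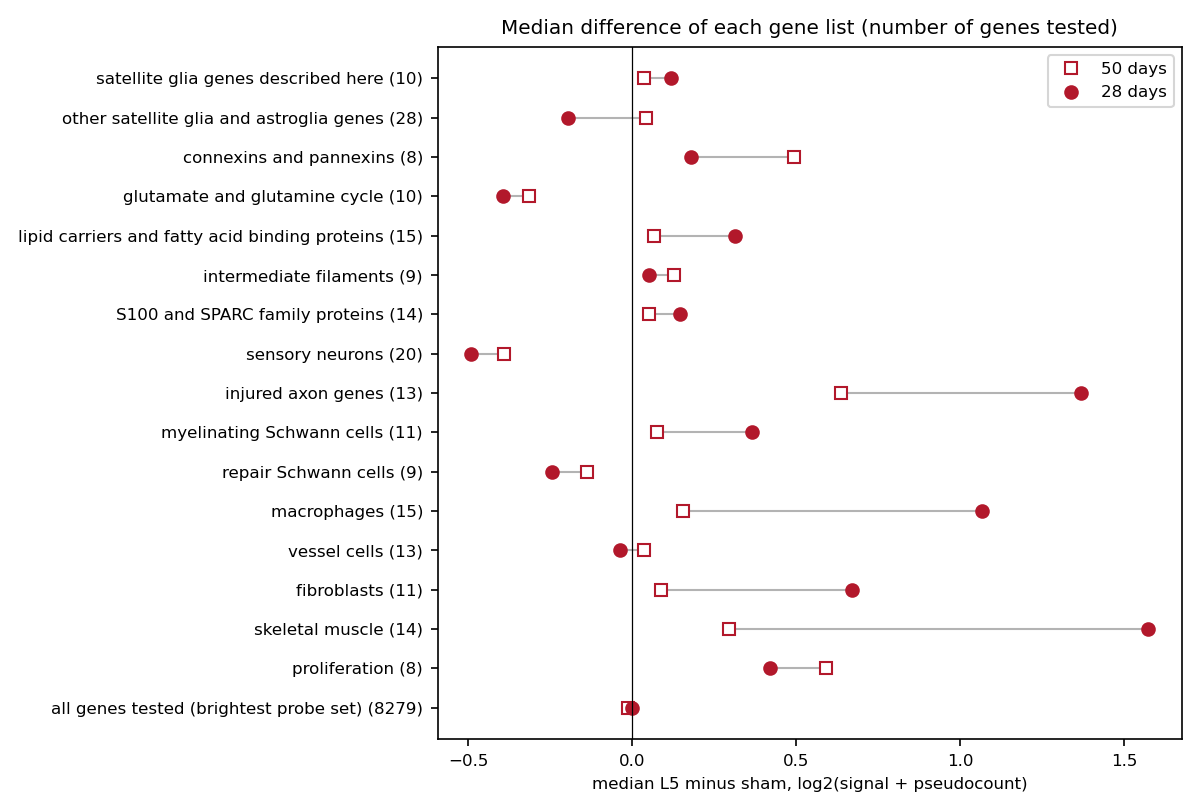
Median L5 minus sham difference of each gene list at 50 days (open squares) and at 28 days (filled circles), on the log2(signal + pseudocount) scale, with the number of genes tested in brackets and each gene by its brightest tested probe set. The satellite glia genes lie near 0 at both days (0.03 at 50 days and 0.12 at 28 days), while macrophages, fibroblasts and skeletal muscle are further from 0 at 28 days than at 50 days.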

How the data were processed

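Gene expression on 36 arrays, from 6 pools of rat ganglia, was read from the deposited intensity values, which are linear. MAS5 made them, per the submitters' processing notes (version not given in the sources used here). On every deposited array the mean intensity, trimmed by 2% at both ends, was 150.07 to 150.21. Array medians were 50.6 to 91.8, and the number of arrays limits the precision.

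Within a chip type the arrays were set to 1 trimmed mean and signals became log2(signal + pseudocount), the pseudocount being the 20th percentile of the chip type's signals (A 12.8, B 17.7, C 20.2). Control probe sets, and those whose mean log2 value was under the 40th percentile, were left out, which kept 15721 of 26202. Partner arrays were averaged. The 6 pool values entered limma 3.58.1 (R 4.3.3, eBayes with trend) with terms for condition and day and 2 residual degrees of freedom. Benjamini-Hochberg adjustment covered the 3 chip types together. The code was tested on simulated data.

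Gene names are those of the platform annotation where it gives 1 symbol, and all 10 symbols are also in RefSeq. Every tested probe set of the 10 genes was covered, led by the brightest, some of Glul only within a range of differences. Of the 8 below the filter, some were given only within a range of mean signals. From the 15 other gene lists, which share some genes, members that passed, or else the 3 with the lowest p in L5 against sham, were named. Genes below the filter were named after their values were seen. The genes and lists were chosen with earlier results of these data known. For 1 sham array of 28 days on chip B the title and description give different days, and the title was followed. Alternatives changed the pseudocount, filter, scaling, variance trend, day term, array averaging and the pools used.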

Additional observations from a re-analysis of the deposited data

Results flagged for a closer look

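For 5 of the 25 probe sets the direction of a difference was opposite at the 2 days, with both arrays of a pool on the same side each time. There is 1 pool a condition and day, so none of these differences between days was tested. The share of all probe sets that did so was not computed. Separation of 2 arrays from 2 was frequent among the 17 tested probe sets. In L5 against sham at 50 days 6 lay above and 8 below, and in L4 against sham at 50 days 2 and 6. All values are on the log2(signal + pseudocount) scale.

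The brighter probe set of Gja1 (rc_AA858448_at) differed between L5 and sham by -0.62 at 50 days and 0.45 at 28 days, and between L5 and L4 by -0.62 at 50 days and 0.71 at 28 days. The dimmer probe set of S100b (rc_AI146214_at) differed between L5 and sham by -0.80 at 50 days and 0.15 at 28 days. The brighter one (S53527mRNA_s_at) differed between L4 and sham by -0.27 at 50 days and 0.16 at 28 days. The third probe set of Glul (rc_AI232783_s_at) differed between L5 and L4 by -0.17 at 50 days and 0.45 at 28 days. A probe set of Slc1a3 below the filter on dim signals (X63744_at, mean signal 21.9) differed between L5 and L4 by -0.84 at 50 days and 0.75 at 28 days.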

How the results depend on the processing

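Across 20 alternatives, L4 against sham stayed at 0 calls among the satellite glia probe sets. Scaling to the hybridisation controls gave 3 calls in L5 against sham, 6 in L5 against L4 and 1 between days. Of all 15721 probe sets, 2777, 6364 and 282 passed there. Fitting the 12 arrays with the pool as a random block gave 1, 3 and 2 calls in these comparisons, beside 1113, 1380 and 1026 of all 15721 probe sets. Adding the array number as a replicate block gave 1, 3 and 1, beside 970, 1174 and 791. Both fits enter the 2 arrays of a pool as separate values, though they share RNA. The array numbers did not pair the arrays: over 15 pairs of pools a chip, deviations of same-numbered arrays correlated at -0.10 to 0.11. Leaving out 1 pool leaves its condition with 1 pool, which is assumed to vary like the others. For the other comparisons those fits are therefore given as differences without calls, beside the genes above.

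In L5 against sham, scaling to the hybridisation controls turned Glul to -0.24, Apoe to -0.020 and Vim to -0.15. Gja1 turned to 0.20 with the first array of each pool alone, and to 0.51 without the L5 pool and 0.11 without the sham pool of 50 days. Leaving out single pools it ran from -0.68 to 0.51. By their brightest tested probe sets, Fabp7, S100b, Slc1a3 and Sparcl1 stayed below 0 in 20 of 20 alternatives, and Gjb6 and Slc1a2 above 0 in 19 of 19. The filter at the 60th percentile left Gjb6 and Slc1a2 out. Alternatives that changed only the filter, variance trend, day term, random block or L4 pools could not move this difference, so their signs were fixed in advance. Leaving out an array on chip B could move only Gjb6 among these genes. The cause of these shifts was not tested. Over all probe sets, calls in L5 against sham ran from 0 (no day term) to 2777 (hybridisation controls), with 123 in the fit described. The first arrays alone gave 1, the second arrays alone 2, and a fit with no intensity trend 4. Dim probe sets limit what can be said of Slc1a2, Slc1a3 and Gjb6, with mean signals of 69.3, 87.3 and 85.4 by their brightest probe sets.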

Other observations

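Between 50 and 28 days, S100a9, a calcium-binding protein of neutrophils and other myeloid cells, fell by 2.03 ± 0.26 on the log2(signal + pseudocount) scale over the 3 conditions (L18948_at, limma, adjusted p = 0.00918). Its mean signals were 49.7 at 50 days and 203 at 28 days in L5, 23.0 at 50 days and 195 at 28 days in L4, and 45.0 at 50 days and 171 at 28 days in sham. S100a8, its usual partner protein, differed by 0.10 ± 0.21 (adjusted p = 0.832). The brighter Kcnj10 probe set, below the filter, had a mean signal of 47.6 in the L5 pool of 28 days and of 8.95 to 21.9 in the other 5 pools. The dimmer one (U27558_at), also below the filter, did not repeat this, with 13.45 in that pool and 7.15 to 16.2 in the other 5.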
